A study of Mus musculus with 2 samples.

Results

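The genes described here are 10 listed members of the Notch pathway: the receptor genes Notch1, Notch2 and Notch3, the ligand genes Dll1, Jag1 and Jag2, and the transcription factor genes Hes1, Hes6, Hey1 and Heyl. They were chosen by name, with earlier results of these data known. The choice was made out of 19938 genes with a probe set assigned to a single gene. Each of the 10 was read by 1 such probe set. RNA came from differentiated C2C12, an immortalized mouse myoblast line, and was measured on 1 Affymetrix array per vector. Cells in the Ad-caERα group were infected with an adenovirus for a constitutively active estrogen receptor α, and cells in the Ad-DsRed group with an adenovirus for the red fluorescent protein DsRed. Both cultures grew in 10% fetal bovine serum, spent 7 days in 2% horse serum to form myotubes, and then met the virus for 48 h (multiplicity of infection 30). The question put to the arrays is how myotube transcripts differ when the active receptor, in place of the control protein, is expressed. The labels do not give the receptor's species, the part of it that was cloned or the share of cells infected.

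Notch signalling passes between touching cells. A Delta or Jagged ligand on the sending cell binds a Notch receptor on its neighbour, which is then cut by an ADAM protease and by γ-secretase. The freed intracellular domain enters the nucleus, joins the DNA-binding protein RBPJ and Mastermind coactivators, and turns on repressors of the HES and HEY families. In skeletal muscle this pathway is known for keeping satellite cells quiescent and for holding back myoblast differentiation.

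With 1 array per group no replicate spread exists, so no test was made and every difference below describes these 2 arrays. All values are log2 signals, and differences are taken as Ad-caERα minus Ad-DsRed. A gene counted as measured when its higher value passed a floor of 5.11, set from 1212 probe sets for olfactory or vomeronasal receptors, genes of sensory neurons. By this rule 13556 genes were measured. Their differences had a median of 0.0017 and an SD of 0.27. Where 770 genes had several probe sets, these gave differences with an SD of 0.13 within a gene, which is a yardstick for the measurement and not for the cultures. Esr1, which encodes estrogen receptor α, was at 8.44 in Ad-caERα and 7.38 in Ad-DsRed, in the direction of the vector labels.

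Muscle markers were bright on both arrays, and endothelial and leukocyte markers were partly below the floor. All 10 muscle markers were above the floor on both arrays, with signals of 8.32 to 13.00 in Ad-caERα and 8.29 to 12.78 in Ad-DsRed. Of these, 7 lay below 0, with a median difference of -0.13. Ttn was lowest at -0.42 and Des highest at 0.22. Of 10 endothelial markers 4 were measured (Tek, Esam, Cldn5 and Egfl7), 3 of them below 0 with a median difference of -0.12, while Pecam1, Cdh5 and Kdr lay below the floor on both arrays. The summed level of the 10, as a log2 signal, was 8.56 in Ad-caERα and 8.62 in Ad-DsRed. Leukocyte markers were measured for 3 of 9 genes (Cd68, Cd3e and Cd14), 2 of them above 0 with a median difference of 0.25. Ptprc, Csf1r and Adgre1 were below the floor, and the summed level of the 9 was 8.51 in Ad-caERα and 8.41 in Ad-DsRed. Smooth muscle and pericyte markers, some of which muscle cells also express, were measured for 8 of 10 genes, while the pericyte gene Rgs5 was below the floor. They summed to 14.14 in Ad-caERα and 14.09 in Ad-DsRed. Most of this sum came from Acta2, which differed by -0.031, and from Des, also on the muscle list, which differed by 0.22. Of the 8 measured genes 6 lay below 0, with Pdgfrb, a receptor of mural and mesenchymal cells, lowest at -0.39. Fibroblast markers were measured for 7 of 8 genes, 5 of them below 0, and summed to 13.63 in Ad-caERα and 13.62 in Ad-DsRed. Dcn, which differed by 0.065, made up most of this sum, while Pdgfra (-0.28) and Col1a2 (-0.24) were lowest. The neural and Schwann cell list, with 3 of 6 genes measured, summed to 9.50 in Ad-caERα and 9.51 in Ad-DsRed. Its sum came mostly from Tubb3, which differed by -0.00375. The part of these marker differences in the values below was not tested.

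Jag1, Notch1 and Hey1 had the lowest differences of the 10 genes, Heyl was the only gene above 0, and no gene differed by 2-fold. The 10 differences ran from -0.62 to 0.29, with 9 below 0 and a median of -0.24. Among all measured genes 48.8% lay below 0, and the 10 had been listed with earlier results of these data known. By at least 2-fold 0 of the 10 were higher and 0 lower, against 0.59% of the measured genes higher and 0.0959% lower, 0.686% in all. Lower RNA per cell and fewer expressing cells cannot be told apart in these bulk cultures. Jag2 and Hes6 lay so close to 0 that centring each array on its median turned their signs. This left 7 genes below 0 and 3 above, where 56.6% of all measured genes lay above 0.

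**Figure D1:**
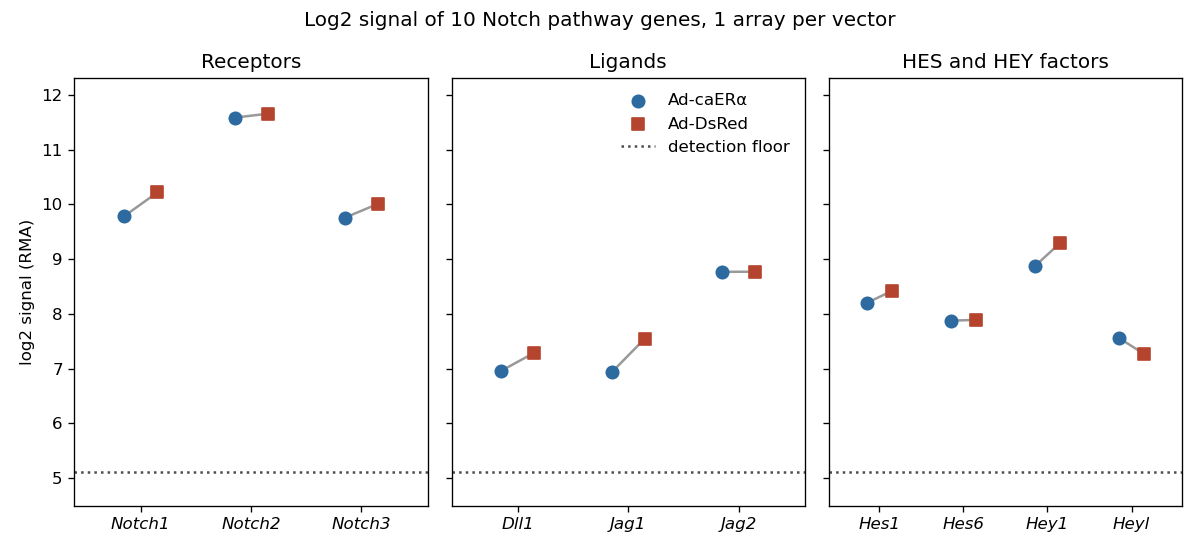
Log2 signals (vertical axis) of the 10 genes in 3 panels by role, with a blue circle for the Ad-caERα array, a red square for the Ad-DsRed array and a dotted line for the detection floor of 5.11. Every gene lies above the floor on both arrays, Jag1 has the widest gap (6.93 in Ad-caERα, 7.55 in Ad-DsRed), and Heyl alone slopes the other way.

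All 3 receptor genes were lower in Ad-caERα, to unequal degrees. Notch1, a receptor well studied in satellite cells, gave a log2 signal of 9.78 in Ad-caERα and 10.22 in Ad-DsRed, a difference of -0.43 (1.35-fold lower). Notch3, a receptor also found on satellite cells and on vascular mural cells, was at 9.76 in Ad-caERα and 10.01 in Ad-DsRed, a difference of -0.25. Notch2 was at 11.58 in Ad-caERα and 11.65 in Ad-DsRed, a difference of -0.071. The gap for Notch2 was smaller than the 0.13 within a gene, and the gaps for Notch1 and Notch3 were wider than it. Over the 1212 olfactory and vomeronasal probe sets the SD of the difference was larger, at 0.22, and the gap for Notch3 was close to that. Differences as low as that of Notch1 were seen in 2.69% of the measured genes and in 1.11% of the genes of its own class when genes were cut into 5 equal classes by level. The same shares were 11.3% and 5.13% for Notch3, and 35.3% and 29.9% for Notch2. All 3 receptor genes lay in the brightest class, where the SD of the difference was 0.20.

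Of the ligand genes, Jag1 and Dll1 were lower in Ad-caERα and Jag2 was nearly equal on the arrays. Jag1, a ligand with a broad role in development, gave a log2 signal of 6.93 in Ad-caERα and 7.55 in Ad-DsRed, a difference of -0.62 (1.53-fold lower). It was the only member past 1.5-fold, where 0.885% of measured genes were lower by that size. Its difference was in place 94 from the bottom of 13556. Dll1, the ligand tied to the upkeep of muscle progenitors in the mouse embryo, was at 6.96 in Ad-caERα and 7.29 in Ad-DsRed, a difference of -0.33 (1.26-fold lower). Jag2 was at 8.77 on both arrays, with a difference of -0.0015. Among the genes of their own level class, differences as low were found for 1.22% in the case of Jag1, 7.08% for Dll1 and 42.8% for Jag2. Jag1 and Dll1 were also the dimmest members in Ad-caERα, although both lay more than 1 log2 unit over the floor.

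The transcription factor genes went both ways. Hey1, a repressor that Notch induces in many cell types, was at 8.87 in Ad-caERα and 9.29 in Ad-DsRed, a difference of -0.42 (1.34-fold lower). Hes1, the prototype of the repressors that Notch induces, was at 8.20 in Ad-caERα and 8.42 in Ad-DsRed, a difference of -0.22 (1.17-fold lower). Heyl, another Notch-induced repressor and a gene of quiescent satellite cells, was at 7.56 in Ad-caERα and 7.27 in Ad-DsRed, a difference of 0.29 (1.23-fold higher). Hes6, which is known to counteract Hes1 and to favour differentiation, was at 7.88 in Ad-caERα and 7.89 in Ad-DsRed, a difference of -0.013. The known Notch-induced repressors therefore did not share a direction on these arrays. Differences as low as that of Hey1 were found in 3.01% of the measured genes, as low as that of Hes1 in 14.1%, and as high as that of Heyl in 9.09%.

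**Figure D2:**
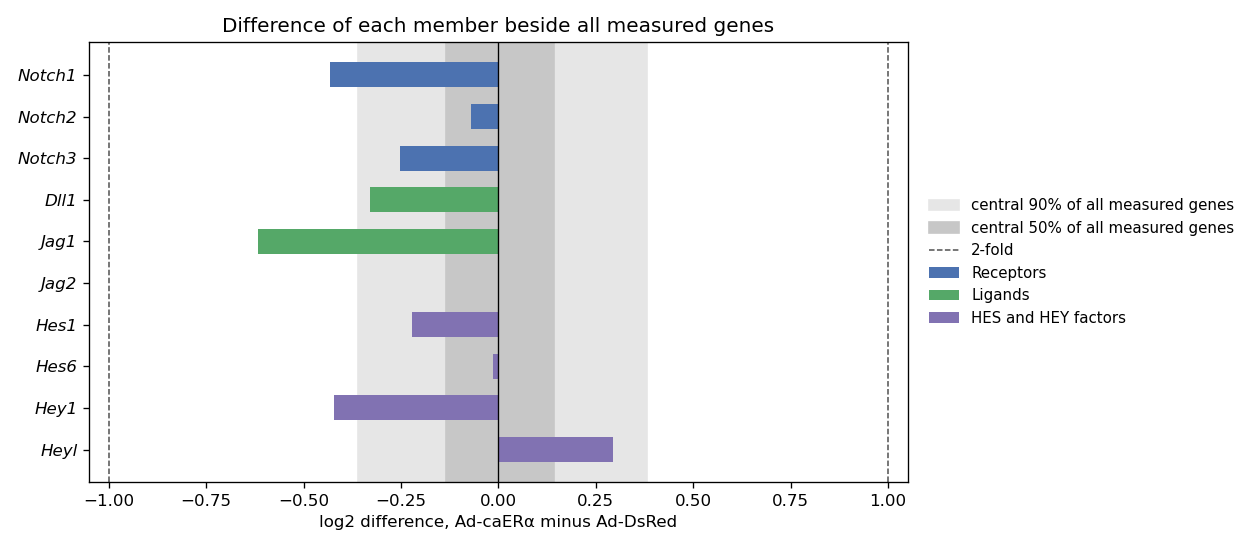
Horizontal bars give the log2 difference of each gene, Ad-caERα minus Ad-DsRed, coloured by role; the shaded bands hold the central 90% (light) and 50% (dark) of all 13556 measured genes, and dashed lines mark 2-fold. Jag1, Notch1 and Hey1 pass the light band on the low side, Dll1, Notch3, Hes1 and Heyl lie between the bands, and Notch2, Jag2 and Hes6 lie in the dark band.

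Upstream sequence is shown for Jag1 and Notch1, which had the lowest differences, for Dll1, the other ligand below 0 by more than the probe set yardstick, and for Hes6, whose signals were nearly equal. RefSeq promoter sequences of build GRCm38.p6 were matched for 7 of the 10 genes, Notch1, Notch2, Notch3, Dll1, Jag1, Jag2 and Hes6, at 9 annotated starts. Each run below is the 250 bases before a start, 5′ to 3′ on the strand of the gene. Capitals mark E-boxes (CANNTG, bound by myogenic factors such as MyoD) and single arms of the estrogen response element (GGTCA), on either strand. Dll1 and Hes6 have 2 annotated starts each, and the first in the table is shown.
Jag1 (chr2:137116521-137116770, minus strand): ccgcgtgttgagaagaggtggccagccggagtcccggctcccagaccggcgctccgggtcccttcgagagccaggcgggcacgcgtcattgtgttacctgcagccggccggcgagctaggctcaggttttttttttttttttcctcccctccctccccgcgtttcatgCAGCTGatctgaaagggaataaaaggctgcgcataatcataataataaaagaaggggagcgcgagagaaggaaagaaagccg
Notch1 (chr2:26503823-26504072, minus strand): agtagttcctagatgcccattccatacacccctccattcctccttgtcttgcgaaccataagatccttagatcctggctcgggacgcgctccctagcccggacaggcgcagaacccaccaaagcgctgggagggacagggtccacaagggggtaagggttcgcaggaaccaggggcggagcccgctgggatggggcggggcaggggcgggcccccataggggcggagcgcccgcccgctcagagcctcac
Dll1 (chr17:15375824-15376073, minus strand): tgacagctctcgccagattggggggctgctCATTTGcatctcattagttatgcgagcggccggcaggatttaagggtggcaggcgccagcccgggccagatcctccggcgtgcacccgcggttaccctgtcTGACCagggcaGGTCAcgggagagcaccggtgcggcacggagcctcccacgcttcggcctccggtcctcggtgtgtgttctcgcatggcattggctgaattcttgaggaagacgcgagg
Hes6 (chr1:91414039-91414288, minus strand): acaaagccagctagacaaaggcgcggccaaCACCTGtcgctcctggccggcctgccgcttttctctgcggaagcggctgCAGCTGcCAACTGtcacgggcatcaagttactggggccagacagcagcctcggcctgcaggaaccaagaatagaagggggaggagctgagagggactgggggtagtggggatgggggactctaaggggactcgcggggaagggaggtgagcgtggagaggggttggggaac

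No motif searched was present in the Jag1, Notch1 and Dll1 runs alike. The Dll1 run holds 2 estrogen response element arms, TGACC starting 119 bases and GGTCA starting 108 bases before the start. They point away from each other and are not the full palindrome. The second Hes6 start holds 1 further arm, so 2 of the 9 starts carry an arm, against 35.2% of all 32851 RefSeq starts in the table. The full estrogen response element, both arms 3 bases apart, was in 0 of the 9 windows and in 0.0639% of all. The E-box was in 5 of the 9 windows and in 66.2% of all, and the Hes6 run shown holds 3 of them, the Jag1 run 1 and the Notch1 run 0.

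Motifs of the pathway itself were searched in the same windows on both strands. The core of the RBPJ site, TGGGAA, was in 0 of the 9 windows and in 21.6% of all windows. Hes1, Hey1 and Heyl, the Notch-induced repressors among the members, had no matched start, so their windows were not searched for any motif. The N-box bound by HES factors, CACNAG, was in 4 of the 9 and in 36.7% of all. The C-site bound by HES and HEY factors, CACGNG, was in 6 of the 9 and in 23.5% of all, and it can overlap the N-box and the E-box. In the Dll1 run 1 C-site also overlaps the second arm. The members' windows averaged 66.5% G and C, against 53.2% over all windows, and the C-site is rich in these letters. A match describes letters in a window, and its absence says nothing about binding elsewhere.

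The remaining pathway genes on a list of 77 held no 2-fold difference in either direction. Only 0.686% of all measured genes passed 2-fold, so a count of 0 does not set this list apart. Of the 77 genes, 74 had a single-gene probe set and 69 were measured. Below 0 lay 40 of the 69 and above it 27, with a median of -0.042. Among all measured genes 48.8% were below 0. The lists by role differed in their medians, as described next.

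Other receptors and ligands were mostly lower in Ad-caERα, with 4 of 5 measured genes below 0, against 48.8% of all measured genes. Megf10, an EGF-repeat receptor of satellite cells, was at 9.39 in Ad-caERα and 9.89 in Ad-DsRed, a difference of -0.49. Dll4, a Delta ligand, was at 5.47 in Ad-caERα and 5.87 in Ad-DsRed, a difference of -0.40 between dim signals. Dlk1, a non-canonical ligand, differed by 0.021 and its relative Dlk2 by -0.042. Dll3, Dner and Cntn1 were below the floor on both arrays.

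The enzymes that modify and cut the receptor lay on both sides of 0, with list medians slightly above it. Of 6 receptor glycosylation genes 4 were above 0, with a median of 0.043. Pofut1, which adds O-fucose to the receptor, differed by 0.22 and Poglut1, which adds O-glucose, by 0.14, while the O-GlcNAc transferase Eogt differed by -0.16 and the fringe enzyme Lfng by -0.057. Of 9 measured proteolysis genes 6 were above 0, with a median of 0.050. The γ-secretase subunits Aph1a (0.31) and Psenen (0.20) were highest. Both have 2 probe sets, which differed by 0.305 each for Aph1a and by 0.20 each for Psenen. The lowest were Aph1c (-0.096) and Adam10 (-0.069), an ADAM protease that cuts the receptor after ligand binding.

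Regulators of ligand and receptor traffic leaned lower, with 13 of 19 measured genes below 0 and a median of -0.14. The share below 0 among all measured genes was 48.8%. Neurl3, a Neuralized-family ubiquitin ligase, was at 5.66 in Ad-caERα and 6.19 in Ad-DsRed, a difference of -0.53. Mib1, the ubiquitin ligase that makes Delta and Jagged ligands active in the sending cell, was at 9.54 in Ad-caERα and 9.99 in Ad-DsRed, a difference of -0.44. Dtx1, a Deltex ligase, had the highest difference of this list at 0.32, followed by the Notch inhibitor gene Numbl at 0.24. The feedback inhibitor Nrarp, a Notch target chosen for its role after values were seen, was close to the floor at 5.25 in Ad-caERα and 5.20 in Ad-DsRed.

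In the nuclear complex 9 of 10 measured genes were below 0, with a median of -0.14, against 48.8% of all measured genes below 0. The muscle marker list also leaned lower, with 7 of 10 below 0 and a median of -0.13. Rbpj, the DNA-binding partner of cleaved Notch, was at 10.28 in Ad-caERα and 10.56 in Ad-DsRed, a difference of -0.29. A second Rbpj probe set lay below the floor on both arrays and differed by 0.33. The acetyltransferase gene Ep300 differed by -0.24, Maml1, a Mastermind coactivator, by 0.095 and Snw1 by -0.040. Among 14 measured corepressor genes 7 were above 0 and 6 below, with Tle3 (0.36) and Hdac1 (0.30) highest and Spen (-0.30), a corepressor of RBPJ, and Tle1 (-0.21) lowest.

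Among the other HES and HEY family genes Hes7, a factor of the segmentation clock, had the highest difference of the pathway. It was at 6.52 in Ad-caERα and 5.81 in Ad-DsRed, a difference of 0.71, the only measured gene of the 69 past 1.5-fold. Of all measured genes 1.82% were higher by that size. Bhlhe40, a related repressor that is not a standard Notch target, differed by 0.47. Hes5, a Notch target of neural progenitors, differed by -0.27. Hes3 did not reach the floor in Ad-caERα and was close to it in Ad-DsRed at 5.38. With the floor in place of its Ad-caERα value, Hes3 was 1.21-fold lower. Hey2 and Helt were below the floor on both arrays.

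**Figure D3:**
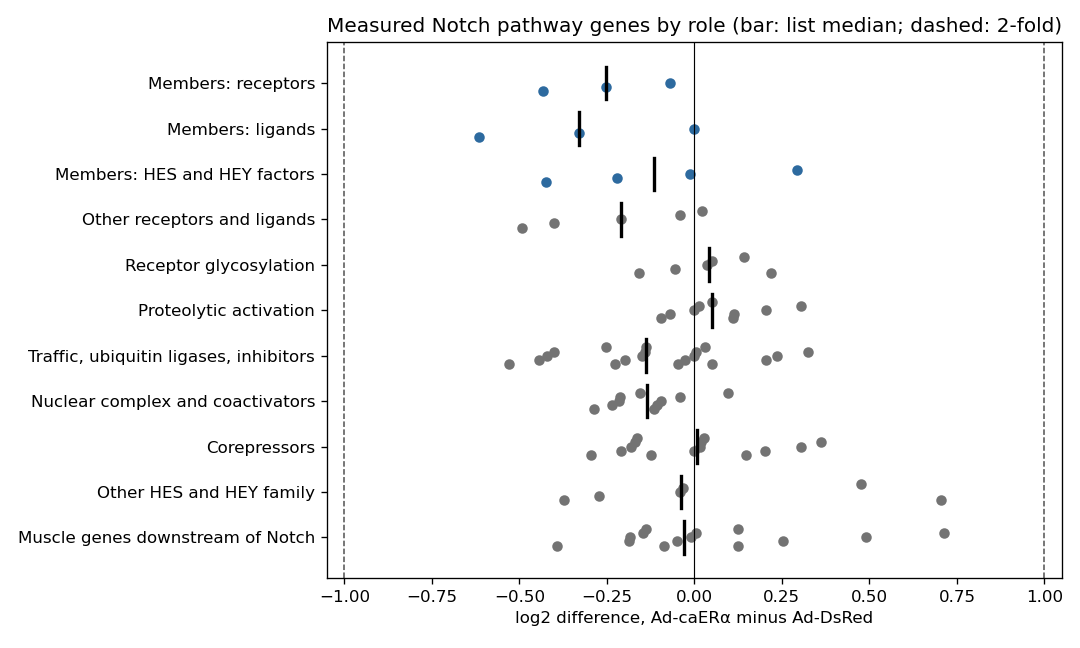
Each point is a measured gene, placed by its log2 difference (Ad-caERα minus Ad-DsRed, horizontal axis) in the row of its role; blue points are the 10 members, a black bar is the list median and dashed lines mark 2-fold. No point reaches 2-fold, 9 of 10 nuclear complex genes lie left of 0, and Hes7 is the farthest point to the right among the pathway genes at 0.71.

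Muscle genes placed downstream of Notch lay on both sides of 0. The list mixes genes that Notch is known to raise in satellite cells with differentiation genes that it holds back. Of 14 measured genes 8 were below 0 and 6 above, with a median of -0.029. None was past 2-fold, where 0.686% of all measured genes were. Myod1, which drives myogenic commitment, was at 10.85 in Ad-caERα and 10.84 in Ad-DsRed, and Myog, which drives terminal differentiation, was at 8.64 in Ad-caERα and 8.83 in Ad-DsRed. Myf5, a factor of myoblasts and satellite cells, was highest at 10.17 in Ad-caERα and 9.46 in Ad-DsRed (a difference of 0.71), followed by the collagen gene Col6a2 (0.49). The lowest were Mef2c, a muscle transcription factor gene (-0.39), and Mymk, which encodes a fusion protein (-0.19). Pax7, the satellite cell factor, named for its role after values were seen, was at 7.77 in Ad-caERα and 7.91 in Ad-DsRed. The satellite cell gene Calcr was below the floor on both arrays.

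Rescaling moved all members by small amounts. Across the settings tried, Jag1 stayed between -0.62 and -0.59, Notch1 between -0.46 and -0.40, Hey1 between -0.45 and -0.39, and Heyl between 0.29 and 0.32. Jag2 ranged from -0.040 to 0.027 and Hes6 from -0.041 to 0.016, so these genes had no stable sign.

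**Figure D4:**
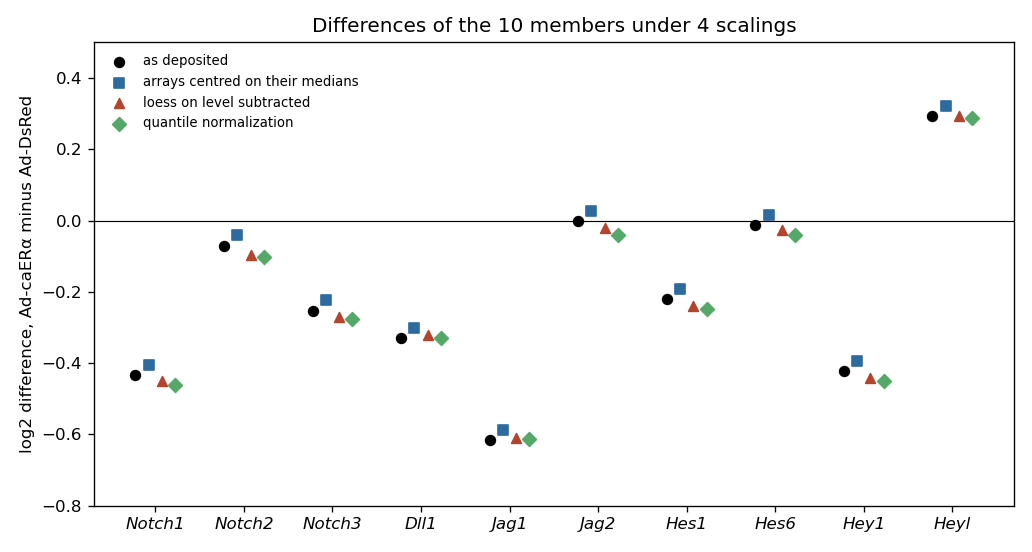
Log2 difference (Ad-caERα minus Ad-DsRed, vertical axis) of each member with the values as deposited (black circles), with arrays centred on their medians (blue squares), with a loess curve on level subtracted (red triangles) and after quantile normalization (green diamonds). The points of each gene lie close together, and Jag2 and Hes6 straddle 0.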

How the data were processed

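RNA of 2 cultures, 1 per vector, was measured on 1 Affymetrix array each from 150 ng of total RNA. The authors deposited a log2 signal for each probe set, made with Affymetrix Expression Console and RMA, per the submitters' processing notes, which as used here name no version or probe filter. Differences between weak signals are compressed by RMA, and its quantile normalization hides a change in total mRNA. Precision is limited by the number of arrays. Genes were named from the platform annotation, using the 21789 of 35556 probe sets with a single gene; where a gene had several, the one with the highest mean was used.

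The floor was the 95th percentile of the higher value over receptor probe sets. The 10 members and all lists were chosen with earlier results of these data known. Named by rule were the members, Esr1, Myod1, Myog and up to 2 highest and 2 lowest measured genes of each pathway list. Nrarp, Pax7, the genes named as below the floor and the other named cell type markers were chosen after their values were seen. Promoter letters came from RefSeq GRCm38.p6. The code was tested on simulated shifts. Python 3.11.15, numpy 2.4.6, pandas 2.3.3, statsmodels 0.14.6 and matplotlib 3.10.9 were used. Alternatives covered floor, scaling, probe sets and fold rule.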

Additional observations from a re-analysis of the deposited data

How the results depend on the processing

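No paired analysis was possible because there was a single array per vector. No array could be left out either, and the spread between cultures is unknown. The counts of members past 2-fold stayed at 0 in both directions under every floor, scaling and probe set rule tried. At 1.5-fold they were 1 lower (Jag1) and 0 higher, and for the other pathway genes 1 higher (Hes7) and 0 lower; both counts were 0 at 3-fold. The number of members above 0 was 1 as deposited, where 50.2% of measured genes were above 0. With each array centred on its median it was 3, against 56.6% of measured genes. The medians over all probe sets were 6.02 in Ad-caERα and 6.05 in Ad-DsRed, so centring raised every difference. Jag2 and Hes6 are the genes added, and the median over all measured genes was then 0.032. The members' median of -0.24 ranged from -0.26 to -0.21 across settings, and their mean was -0.21. Of 137 recalculated values 134 moved by less than the yardstick of 0.13 or, for counts, by no more than 1.5 times. The sign changes of Jag2 and Hes6 are among these small moves. Neither the floors nor the probe set rule could change the members' differences. All members lie above every floor and have a single probe set, so many of the 134 values could not move. These settings share the same 2 arrays and show nothing of how new cultures would vary.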
